A study of Homo sapiens with 10 samples.

Results

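The YPEL genes encode the 5 human yippee-like proteins, YPEL1, YPEL2, YPEL3, YPEL4 and YPEL5, and they were followed here in U2OS cells, a human osteosarcoma line, after 4 h of PD0332991 or of its solvent DMSO. PD0332991, also called palbociclib, blocks CDK4 and CDK6, the kinases that D-type cyclins activate. Each gene was read from the probe set annotated to its symbol alone, which exists for 4 of the 5 members, YPEL2, YPEL3, YPEL4 and YPEL5, out of 14232 genes with such a probe set. YPEL1 shares its 1 probe set with the neighbouring gene PPIL2, with which it overlaps in the RefSeq annotation, so it has no value of its own. The family was chosen with the PD0332991 against DMSO results of these same arrays known. Its treatment differences are therefore a description, given with errors and intervals and without p-values. Counts of members under a p threshold give the scale only.

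Total RNA was hybridised to Affymetrix exon arrays and summarised per gene as log2 values. The groups were PD0332991 for 4 h (5 arrays, labelled dose 1 mM) and DMSO for 4 h (5 arrays), both on U2OS cells grown in medium with 10% serum. The unit of that dose is doubtful, since this compound is usually given to cultured cells at micromolar doses, and the arrays cannot settle it. The labels call the samples of a group biological replicates, all from 1 cell line, and do not say whether they came from separate passages. The array names form 2 sets, with replicates 1 to 3 of both treatments in set 1 and replicates 4 and 5 of both in set 2.

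Yippee-like proteins are small, highly conserved zinc-binding proteins named after the Drosophila protein Yippee. YPEL1 to YPEL4 resemble each other closely, while YPEL5 is more distant from them. Members of the family have been found at the centrosome and the mitotic apparatus. YPEL3 is known as a gene whose overexpression halts growth and induces senescence in human cells. YPEL5 is known as a partner of the CTLH complex, a multi-subunit ubiquitin ligase. For YPEL1 a role is known from mouse fibroblasts, whose shape it alters. Because YPEL1 to YPEL4 are so alike, probes of one could read another, which was not tested.

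Promoter sequences of 4 members were found in the RefSeq promoter table of build GRCh38.p14, and 3 are shown, 250 bases before to 50 bases after the annotated start. YPEL2 and YPEL5 are the members with higher values on PD0332991 arrays, and YPEL3 is the member tied to senescence. The array values were made on build hg18, and these sequences only give context. Capitals mark matches, on either strand, to the GC box GGGCGG, the CCAAT box CCAAT, the cyclic AMP response element core TGACGT and the forkhead core GTAAACA. The YPEL2 window lies at chr17:59331405-59331704 on the plus strand, YPEL5 at chr2:30146757-30147056 on the plus strand and YPEL3 at chr16:30096164-30096463 on the minus strand.
YPEL2: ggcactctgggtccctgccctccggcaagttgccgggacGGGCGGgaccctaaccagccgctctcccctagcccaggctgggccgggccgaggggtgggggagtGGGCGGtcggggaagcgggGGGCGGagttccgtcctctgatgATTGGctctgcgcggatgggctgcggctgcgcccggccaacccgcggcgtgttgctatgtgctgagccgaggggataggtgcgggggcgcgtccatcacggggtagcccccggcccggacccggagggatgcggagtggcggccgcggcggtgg
YPEL5: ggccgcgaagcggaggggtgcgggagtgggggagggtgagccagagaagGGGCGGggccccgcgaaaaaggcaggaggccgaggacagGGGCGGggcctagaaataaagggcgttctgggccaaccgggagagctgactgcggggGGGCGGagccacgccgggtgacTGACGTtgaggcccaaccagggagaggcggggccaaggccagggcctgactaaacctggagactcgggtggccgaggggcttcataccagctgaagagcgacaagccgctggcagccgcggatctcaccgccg
YPEL3: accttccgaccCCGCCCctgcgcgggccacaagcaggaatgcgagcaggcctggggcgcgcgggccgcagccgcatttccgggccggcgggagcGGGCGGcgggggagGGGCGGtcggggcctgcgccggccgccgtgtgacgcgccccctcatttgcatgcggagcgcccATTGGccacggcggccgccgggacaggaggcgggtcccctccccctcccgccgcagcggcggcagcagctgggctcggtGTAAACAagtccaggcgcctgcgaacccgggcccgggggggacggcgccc

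The YPEL2 window holds 3 GC boxes, which begin at -211, -146 and -127 from the start, and 1 CCAAT box on the opposite strand at -104. The YPEL5 window holds 3 GC boxes, at -201, -162 and -105, and 1 cyclic AMP response element core at -83. The YPEL4 window, which is not shown, also holds this core, at -75. In YPEL3 the forkhead core begins on the annotated start base, beside 3 GC boxes and 1 CCAAT box on the opposite strand. Among windows of the same length from 15843 protein-coding genes, 58.5% hold a GC box, 36.4% a CCAAT box, 9.67% the cyclic AMP response element core and 2.61% the forkhead core. The E2F motifs TTTCGCGC (in 0.814% of windows) and TTTGGCGC (0.890%), the CHR motif TTTGAA (12.1%), the TATA box TATAAA (9.63%) and the E-box CACGTG (8.88%) were searched in the same way on both strands, and these letters are not in the 4 windows. GC content was 75% for YPEL2, 70% for YPEL5, 79% for YPEL3 and 62.3% for YPEL4, against a median of 62.7% over all windows. A match is a description of the letters and not evidence of binding.

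One DMSO array stood apart and touches each of the 4 members that have a value of their own. DMSO replicate 1 had an interquartile range of 3.18 log2 units over all 21980 probe sets, against 3.32 to 3.68 on PD0332991 arrays and 3.41 to 3.61 on the other DMSO arrays. Its mean correlation with the other DMSO arrays was 0.962 across probe sets, where the other DMSO arrays had 0.977 to 0.980. The cells carried mesenchymal markers at high values, such as SPARC (12.10 on PD0332991 arrays and 11.97 on DMSO arrays) and COL1A1 (12.05 on PD0332991 arrays and 12.02 on DMSO arrays), and the treatment differences of the 9 mesenchymal markers lay between -0.07 and 0.16. ALPL, TWIST1 and COL1A2 were dim, with means of 6.24, 6.16 and 6.57 on PD0332991 arrays and of 6.24, 6.23 and 6.53 on DMSO arrays. Group means of 4 blood markers lay between 3.89 and 6.69 on PD0332991 arrays and between 3.90 and 6.75 on DMSO arrays, with PTPRC lowest. Of the epithelial markers, KRT8 was at 11.68 on PD0332991 arrays and 11.73 on DMSO arrays and KRT18 at 10.85 on PD0332991 arrays and 10.86 on DMSO arrays. KRT19 was at 7.03 on PD0332991 arrays and 6.93 on DMSO arrays, and CDH1 at 5.56 on PD0332991 arrays and 5.55 on DMSO arrays. In extracts of this kind, a change in the share of cells in a state and a change in RNA per cell cannot be told apart.

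YPEL2 was the member with the largest difference. Its PD0332991 arrays read 6.47, 6.88, 7.20, 7.11 and 7.05 for replicates 1 to 5 (log2). Its DMSO arrays read 5.34, 5.99, 6.08, 6.00 and 6.14. The lowest PD0332991 array thus lay above the highest DMSO array, and replicate 1 was the lowest of its treatment on both sides. The means were 6.94 ± 0.29 with PD0332991 and 5.91 ± 0.33 with DMSO (log2, SD, n = 5), a difference of 1.03 (SE 0.17, 95% confidence interval 0.65 to 1.41), or 2.04-fold (1.57 to 2.66). Of the 14232 genes, 1 had a larger increase, DDIT4, which encodes a stress-induced inhibitor of mTORC1 and differed by 1.28. On DMSO replicate 1 YPEL2 lay below the lower quartile of all probe sets (5.44 on that array), and on the other 4 DMSO arrays it lay above the quartile and below the median of all probe sets, so the gene was dim in DMSO, and RMA compresses differences of dim genes.

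YPEL2 differed by similar amounts in the array sets. In set 1 the means were 6.85 with PD0332991 and 5.80 with DMSO, a difference of 1.05. In set 2 they were 7.08 with PD0332991 and 6.07 with DMSO, a difference of 1.01. Without DMSO replicate 1 the difference was 0.90 (SE 0.14, 95% confidence interval 0.58 to 1.22), and the 4 remaining DMSO arrays spanned 5.99 to 6.14. YPEL2 was therefore tight among those 4 arrays, with an SD of 0.07, while the PD0332991 arrays spanned 0.74.

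YPEL5, the most distant member in sequence and the one linked to the CTLH ligase, also had a higher mean with PD0332991, and its treatments overlapped. The PD0332991 arrays read 8.79, 8.88, 8.81, 9.23 and 9.17 for replicates 1 to 5 (log2). The DMSO arrays read 7.73, 8.22, 8.66, 9.05 and 8.72. All 5 PD0332991 arrays lay above the DMSO mean, and 2 of them lay above every DMSO array. The means were 8.98 ± 0.21 with PD0332991 and 8.48 ± 0.51 with DMSO (log2, SD, n = 5), a difference of 0.50 (SE 0.17, 95% confidence interval 0.13 to 0.87), or 1.42-fold (1.10 to 1.83).

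DMSO replicate 1 carried part of the YPEL5 value. Without it the difference was 0.35 (95% confidence interval 0.10 to 0.60), or 1.28-fold. The difference was 0.62 in array set 1, which contains that array, and 0.32 in array set 2, where the interval was -0.09 to 0.73. YPEL5 was also the member that varied most among DMSO arrays, with a range of 1.32 over the 5 and 0.82 without replicate 1.

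YPEL3, the member tied to senescence, did not show a separation of the treatments. Its PD0332991 arrays read 6.90, 6.89, 6.86, 6.78 and 6.69 for replicates 1 to 5 (log2). Its DMSO arrays read 7.80, 6.70, 6.82, 6.64 and 6.87. The other 4 DMSO arrays and all 5 PD0332991 arrays lay between 6.64 and 6.90, and DMSO replicate 1 lay far above them. The means were 6.82 ± 0.09 with PD0332991 and 6.96 ± 0.47 with DMSO (log2, SD, n = 5), a difference of -0.14 (SE 0.19, 95% confidence interval -0.56 to 0.28). Without DMSO replicate 1 the sign turned, to 0.06, and the interval narrowed to -0.12 to 0.24, which as a fold is 0.918 to 1.18.

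YPEL4 likewise gave overlapping treatments. Its PD0332991 arrays read 5.80, 6.34, 6.10, 6.43 and 6.29 for replicates 1 to 5 (log2). Its DMSO arrays read 6.82, 6.07, 6.13, 6.27 and 6.30. Replicate 1 was the lowest PD0332991 array and the highest DMSO array. The means were 6.19 ± 0.25 with PD0332991 and 6.32 ± 0.30 with DMSO (log2, SD, n = 5), a difference of -0.13 (SE 0.17, 95% confidence interval -0.50 to 0.25). Without DMSO replicate 1 it was 0.02 (95% confidence interval -0.23 to 0.28).

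**Figure D1:**
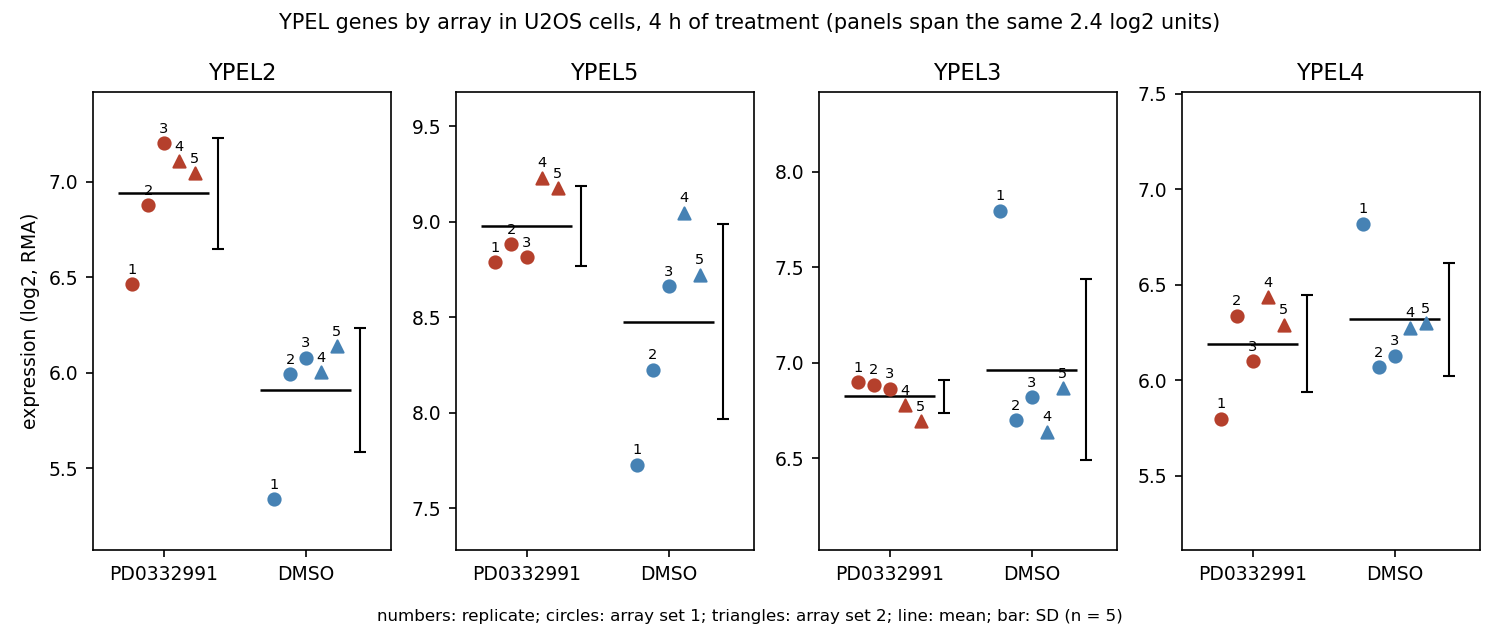
Log2 expression of YPEL2, YPEL5, YPEL3 and YPEL4 on each array, with PD0332991 left of DMSO, replicate numbers beside the points, circles for array set 1, triangles for array set 2, a line at the mean and a bar for the SD (n = 5). The YPEL2 groups do not overlap, and DMSO replicate 1 is the lowest DMSO array for YPEL2 and YPEL5 (5.34 and 7.73) and the highest for YPEL3 and YPEL4 (7.80 and 6.82).

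DMSO replicate 1 thus stood at an end of the DMSO range for all 4 members, low for YPEL2 and YPEL5 and high for YPEL3 and YPEL4. Its part in the differences was measured by leaving it out, as given above for each gene. YPEL2 and YPEL5 kept a positive difference without it, and YPEL3 and YPEL4 came to lie near 0.

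**Figure D2:**
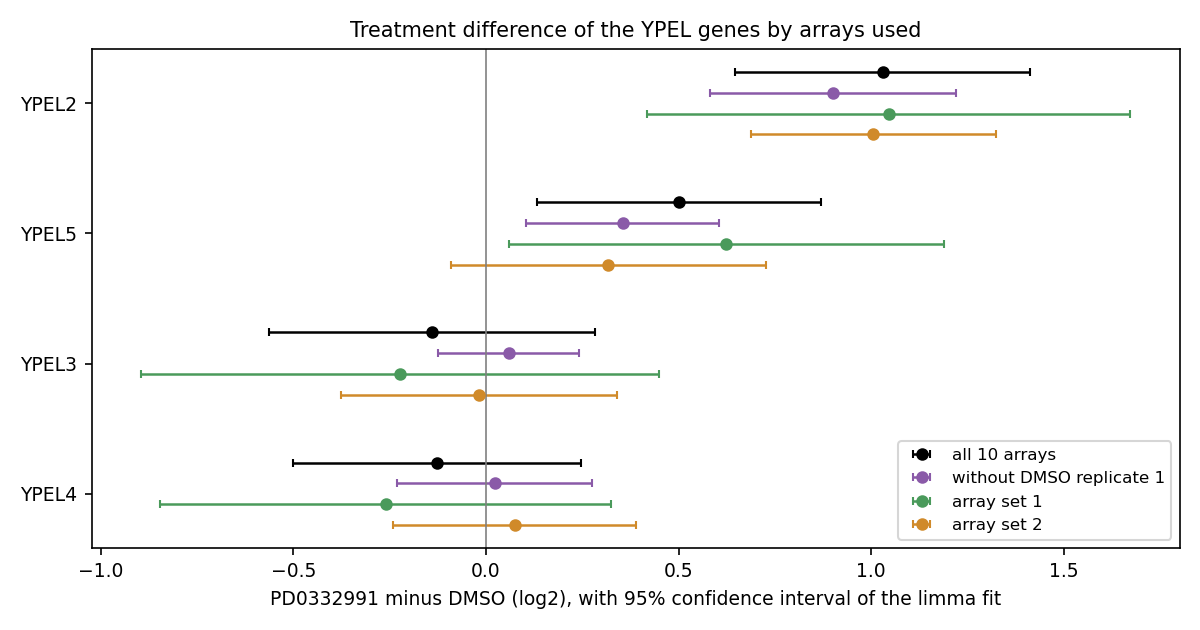
PD0332991 minus DMSO difference of each YPEL gene (log2, points) with its 95% confidence interval from limma (bars), for all 10 arrays, without DMSO replicate 1, and within array set 1 or 2. YPEL2 lies between 0.90 and 1.05 in the 4 fits, and YPEL5 between 0.32 and 0.62. The YPEL5 interval includes 0 in array set 2 alone (-0.09 to 0.73), and the YPEL3 and YPEL4 intervals include 0 in each fit.

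The probe set shared by YPEL1 and PPIL2, which encodes a cyclophilin-like ubiquitin ligase, cannot be assigned to either gene. It read 6.11, 5.80, 5.75, 5.87 and 5.89 with PD0332991 and 6.18, 5.72, 5.87, 6.43 and 6.21 with DMSO (log2). The treatments overlapped, with means of 5.89 ± 0.14 with PD0332991 and 6.08 ± 0.28 with DMSO (SD, n = 5) and a difference of -0.20 (SE 0.13, 95% confidence interval -0.49 to 0.10). The difference was -0.04 in array set 1 and -0.44 in array set 2.

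Against all probe sets, limma with array set as a covariate called 0 of the 4 members at an adjusted p under 0.05, where 0.00910% of the 21980 probe sets were called as higher and 0.0409% as lower, and 2 members, YPEL2 and YPEL5, had an unadjusted p under 0.05, where 4.17% of probe sets did. YPEL2 was the 1 member whose 5 PD0332991 arrays did not overlap the 5 DMSO arrays, an order seen upward in 0.214% of probe sets and downward in 0.560%. With array weights or, in a fit added after seeing the data, with both arrays numbered 1 left out, limma called 1 member, YPEL2. There 0.287% and 0.0546% of probe sets were called, in that order. These shares give the scale only, because the members were chosen on this contrast. Of the 14232 genes, 0.0422% had a larger absolute difference than YPEL2, 0.703% than YPEL5, 31.1% than YPEL3 and 35.6% than YPEL4.

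Contrasts that played no part in the choice of members were tested as well. The treatment difference in set 2 minus that in set 1 was -0.04 for YPEL2 (95% confidence interval -0.88 to 0.80), -0.31 for YPEL5 (-1.08 to 0.47), 0.21 for YPEL3 (-0.71 to 1.12) and 0.34 for YPEL4 (-0.44 to 1.11), each with a limma adjusted p of 1.00. This interaction term called 0 of 21980 probe sets, with 562 at an unadjusted p under 0.05. Among the DMSO arrays alone, YPEL5 was 0.68 higher in set 2 than in set 1 (95% confidence interval -0.05 to 1.41, limma adjusted p = 0.691). YPEL2 differed by 0.27 in that contrast (-0.38 to 0.91), YPEL3 by -0.35 (-1.21 to 0.51) and YPEL4 by -0.05 (-0.70 to 0.60), with limma adjusted p from 0.932 to 0.997. No probe set was called between the DMSO sets by limma (0 of 21980, with 1642 at an unadjusted p under 0.05).

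The genes whose profiles lay nearest to YPEL2 were found by the mean absolute difference between log2 profiles over the 10 arrays, each centred on its mean within its array set. The nearest of 14231 other genes was CLK4, which encodes a kinase of splicing factors, at a distance of 0.17, followed by DDIT4 (0.19), the histone demethylase gene KDM4A (0.22), the cyclin G2 gene CCNG2 (0.24) and PIK3R3, which encodes a regulatory subunit of PI3-kinase (0.25). YPEL2 itself deviated from its set means by 0.51 on average. All 5 had higher means with PD0332991, with CLK4 at 6.48 ± 0.46 against 5.59 ± 0.42 in DMSO and KDM4A at 9.27 ± 0.22 against 8.61 ± 0.21 in DMSO (log2, SD, n = 5). YPEL2 was chosen on this contrast, and its profile is mostly that difference. Genes picked as nearest to it therefore share its direction by selection, and their means and p-values are a description. Of the 5, DDIT4 passed limma's adjusted threshold (adjusted p = 0.00177), and CCNG2 did not (0.78, adjusted p = 0.0629). YPEL5 stood at rank 15 in nearness to YPEL2, with a distance of 0.29, YPEL4 at rank 10946 and YPEL3 at rank 11353.

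For YPEL5, the nearest genes were TIMM8B, which encodes a chaperone of mitochondrial protein import (0.07), the kelch family gene KLHL5 (0.10), GOLPH3L, a Golgi protein gene (0.10), the tRNA pseudouridine synthase gene PUS3 (0.10) and the neuropeptide gene SPX (0.10), against an average deviation of 0.28 for YPEL5 itself. YPEL5 was itself lowest on DMSO replicate 1, so nearness to it favours genes that are low there. Each of these 5 was low on that array, with TIMM8B at 7.99 against a DMSO mean of 8.77 ± 0.46 (SD, n = 5). None passed limma's adjusted threshold, with adjusted p from 0.943 to 1.00. YPEL2 stood at rank 5053 in nearness to YPEL5, at the same distance of 0.29, so only the rank differed. A gene flat over the arrays would lie at 0.28 from YPEL5, nearer than YPEL2. The profiles share the same 10 arrays and the same array effects.

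**Figure D3:**
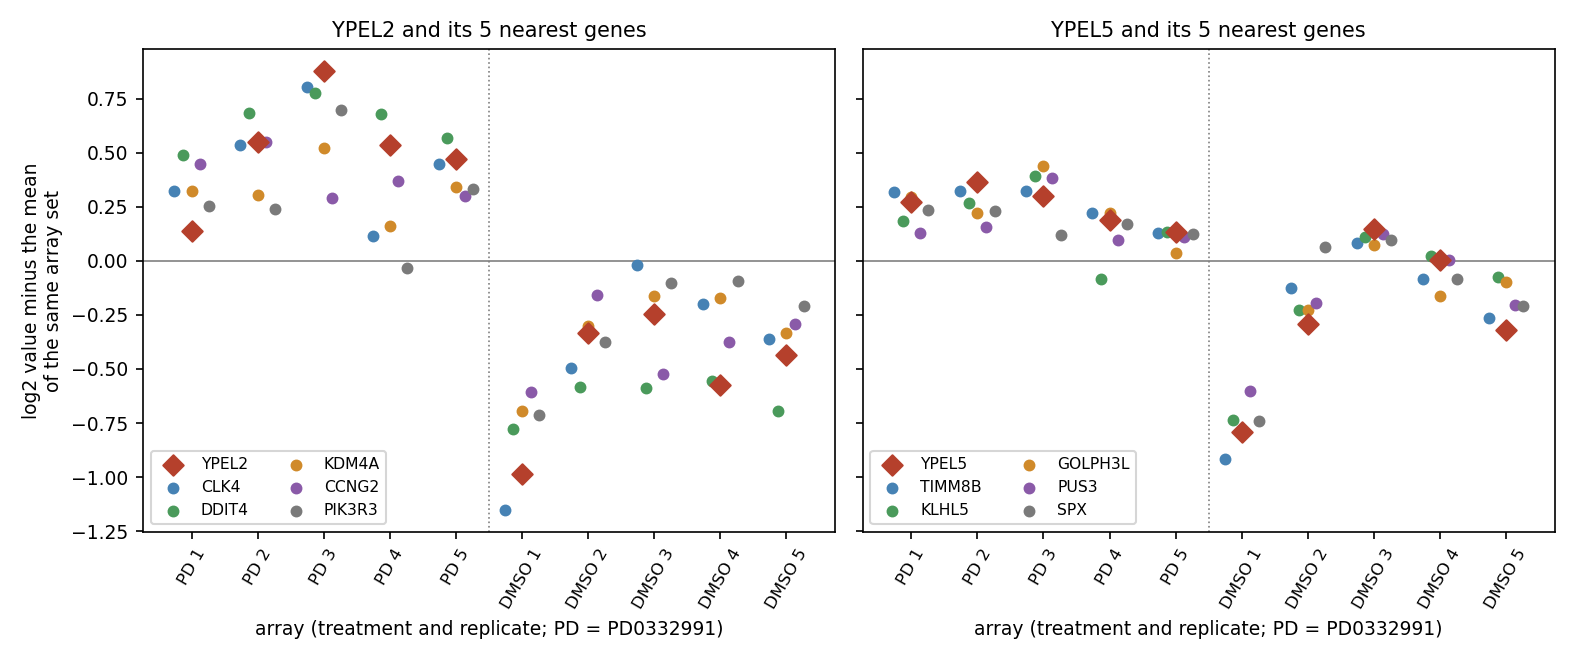
Log2 values of YPEL2 (left) and YPEL5 (right) and the 5 genes nearest to each, centred on the mean of each array set, on the PD0332991 arrays and then the DMSO arrays. The genes near YPEL2 lie mostly above 0 with PD0332991 and below 0 with DMSO, while those near YPEL5 are set apart most by DMSO replicate 1. The genes were picked for this likeness, so the shared directions follow from the choice.

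The CTLH ubiquitin ligase is the complex with which YPEL5 is known to associate. Of 13 genes, listed with earlier results of these data known, 10 were measured. Of these 10, 7 had a positive and 3 a negative difference, and the median was 0.13, against -0.02 over the 14232 genes. None was called by limma after adjustment, and 2, both higher, had an unadjusted p under 0.05, where 1.41% of probe sets did in that direction. They were WDR26, which encodes a propeller subunit that recruits substrates, and UBE2H, which encodes the ubiquitin-conjugating enzyme of the complex. WDR26 was the 1 listed gene whose treatments did not overlap, at 9.16 ± 0.09 with PD0332991 and 8.83 ± 0.27 with DMSO (log2, SD, n = 5), an order seen upward in 0.214% of probe sets. Its difference was 0.33 (SE 0.14, 95% confidence interval 0.02 to 0.63, limma adjusted p = 1.00).

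UBE2H averaged 8.20 ± 0.14 with PD0332991 and 7.86 ± 0.24 with DMSO, a difference of 0.34 (SE 0.13). MKLN1, the kelch-repeat subunit muskelin, had a difference of 0.40 (SE 0.22), and NMNAT1, the nuclear NAD synthesis enzyme described as a protein this complex targets, one of 0.24 (SE 0.13). GID8 differed by 0.15 and the substrate receptor gene GID4 by 0.11, and the scaffold gene RANBP10 by 0.02. The RING subunit genes MAEA and RMND5B had -0.03 and -0.04, and ARMC8 -0.03. Without DMSO replicate 1 the median of the list was 0.09, against 0.01 over the 14232 genes. In that fit WDR26 was at 0.20, UBE2H at 0.23, MKLN1 at 0.18, NMNAT1 at 0.15, GID4 at 0.11 and RANBP10 at 0.07. GID8 was then near 0, MAEA at -0.04, RMND5B at -0.11 and ARMC8 at -0.20. RANBP9, RMND5A and HBP1 had no single-symbol probe set.

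The genes whose proteins share the Yippee fold, with 3 measured, had a median difference of -0.02, and of -0.14 without DMSO replicate 1. CRBN, which encodes the ubiquitin ligase receptor cereblon, had a difference of 0.03 (SE 0.19, 95% confidence interval -0.39 to 0.45). MIS18A and OIP5, which encode the centromere factors Mis18-alpha and Mis18-beta, had -0.02 (-0.25 to 0.21) and -0.11 (-0.44 to 0.22). Without DMSO replicate 1 the difference of CRBN turned negative, at -0.14, and MIS18A and OIP5 were at -0.10 and -0.23. Of these 3 genes limma called 0, and 0 had an unadjusted p under 0.05.

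Genes known to be raised in growth arrest and quiescence were measured for 14 of 16 listed, 11 higher and 3 lower, with a median of 0.20 and of 0.19 without DMSO replicate 1. limma called 0 of them, and 5 higher and 1 lower had an unadjusted p under 0.05, where 1.41% and 2.76% of probe sets did. The list was set with earlier results of these data known, so these shares give the scale only. CCNG2, whose product cyclin G2 restrains proliferation, had 7.97 ± 0.13 with PD0332991 and 7.18 ± 0.17 with DMSO (log2, SD, n = 5), a difference of 0.78 (SE 0.11, limma adjusted p = 0.0629). PIK3IP1, an inhibitor of PI3-kinase, had 6.50 ± 0.24 with PD0332991 and 6.01 ± 0.18 with DMSO, a difference of 0.48 (SE 0.09, limma adjusted p = 0.207). TXNIP, the inhibitor of thioredoxin, differed by 0.33, and BTG3, an antiproliferative gene of the BTG and TOB family, by -0.25 (SE 0.08). CDKN1B and GAS1 were also lower with PD0332991, by -0.28 (SE 0.19) and -0.15 (SE 0.11), and their treatments overlapped. The treatments did not overlap for CCNG2 and PIK3IP1, an order seen upward in 0.214% of probe sets, or for BTG3, where it was downward as in 0.560%. CCNG2 was called by limma without DMSO replicate 1 (adjusted p = 0.0495), without the dimmest 33.3% of probe sets (0.0259), with a variance trend (0.0366) and with array weights (0.00977). These 4 fits called 0.105%, 0.0955%, 0.0637% and 0.287% of their probe sets in either direction, in that order. PIK3IP1 was called with array weights (0.0203). Over the 19 alternatives the limma adjusted p ran from 0.00977 for CCNG2 and from 0.0203 for PIK3IP1 to 0.999 for both, the last in array set 1 alone.

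**Figure D4:**
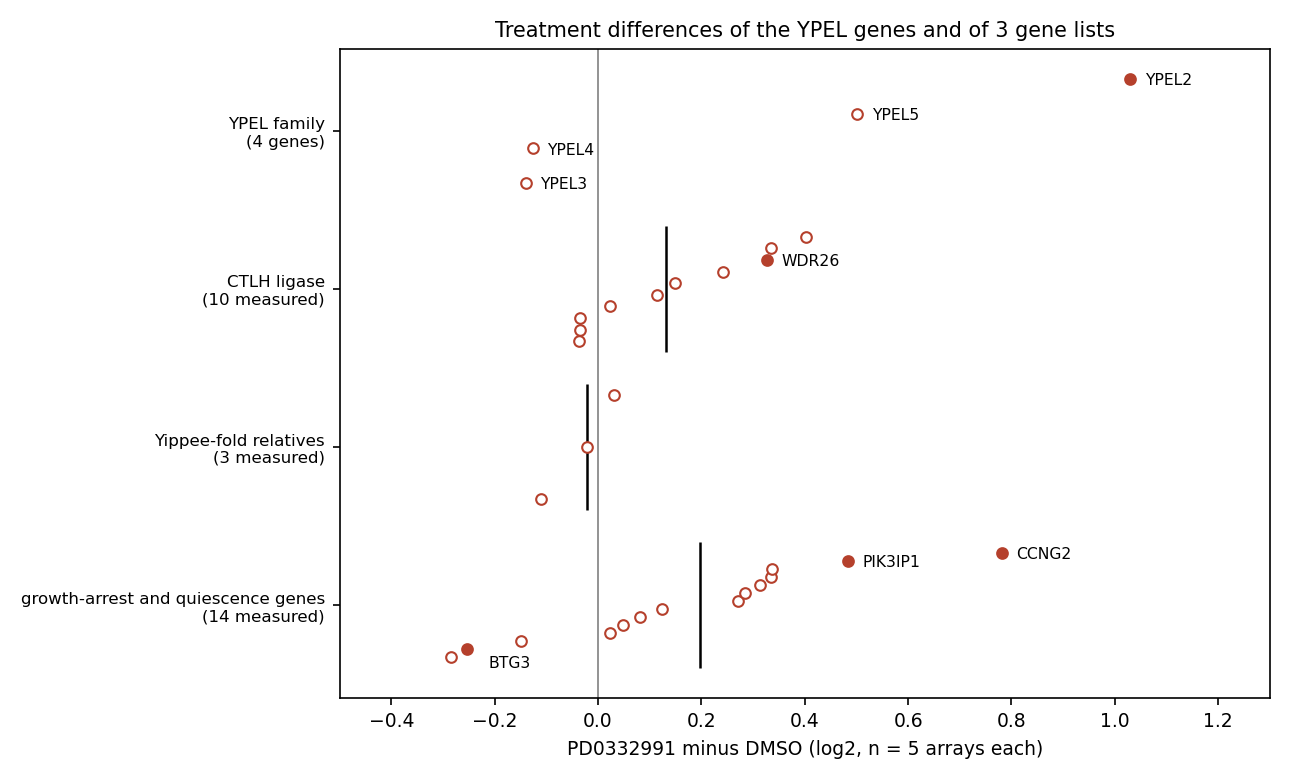
PD0332991 minus DMSO differences (log2, n = 5 arrays each) of the 4 YPEL genes and of the measured genes of 3 lists, 1 point a gene, filled where the treatments do not overlap, with a vertical bar at each list's median. YPEL2 lies at 1.03, beyond every listed gene, of which CCNG2 is highest at 0.78.

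The nearest protein-coding neighbours of the YPEL genes in the RefSeq gene table were measured on 8 probe sets. Beside YPEL2, the phosphodiesterase gene GDPD1 had a difference of 0.06 (SE 0.11) and the helicase gene DHX40 one of 0.07 (SE 0.10). Beside YPEL5, ALK had -0.08 (SE 0.16), and LBH, a transcription cofactor gene, 0.24 (SE 0.12, at 9.67 ± 0.55 with PD0332991 and 9.43 ± 0.68 with DMSO). TBX6 and GDPD3 beside YPEL3 had 0.00 and -0.17, and SERPING1 and CLP1 beside YPEL4 had 0.08 and -0.01. The 8 differences without DMSO replicate 1 lay between -0.08 and 0.20, with LBH at 0.13, SERPING1 at 0.20, ALK at 0.04 and GDPD3 at -0.07. All 8 had overlapping treatments and a limma adjusted p of 1.00.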

How the data were processed

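The authors deposited log2 expression values, 1 per gene-level probe set and array, for 21980 probe sets and 10 arrays. Per the submitters' processing notes these came from RMA and Partek with build hg18; in the sources used here, versions, parameters and the probe set level (core or extended) are not given. The number of arrays limits the precision, and no detection call was used, so level alone marks a dim gene. The values were used as deposited.

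Probe sets were named through the platform annotation: 14432 carried 1 symbol, 2408 several and 5140 none. Entrez identifiers checked against RefSeq (GRCh38.p14) changed 0 symbols. With several probe sets, that with the highest mean was used. Coordinates are printed for promoters only.

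Treatment was fitted over all probe sets with limma 3.58.1 in R 4.3.3 (lmFit, eBayes, 2-sided, array set as covariate, Benjamini-Hochberg, threshold 0.05), after a test on simulated data. Alternatives covered covariate, replicate block, normalization, dim probe sets, weights, variance trend, array set and leaving out arrays; leaving out both arrays numbered 1 was added after seeing the data. Other tools were Python 3.11.15, pandas 2.3.3 and Matplotlib 3.10.9.

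The members, lists, motifs and the rule for named genes were chosen with earlier results of these data known. The rule named the members, all measured CTLH and Yippee-fold genes, the 4 growth-arrest genes with the smallest p, neighbours, the 5 genes nearest to each of the 2 members with the largest difference, and 5 drug response genes, of which DDIT4 and CCNE1 are used. CDKN1B and GAS1 are given outside this rule, as lower genes of the growth-arrest list. 1 further list and 1 motif are not reported here. No set was tested.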

Additional observations from a re-analysis of the deposited data

Results flagged for a closer look

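Within groups of 5 arrays, a value was singled out when its gap to the nearest array exceeded 0.71 of the group's whole range. Of 86 groups over 43 probe sets named by the rule 9 were singled out, where chance gives about 1 in 20 independent groups. These groups share the same 10 arrays, and some genes were picked for likeness to YPEL2 or YPEL5, so that rate gives the scale only. Of the 9, 6 were DMSO replicate 1. Among the YPEL genes, this array was lowest for YPEL2 (5.34, the next 5.99, a gap of 0.814 of the range) and highest for YPEL3 (7.80, the next 6.87, 0.804).

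DMSO replicate 1 was also lowest for WDR26 (8.35, gap 0.734), NMNAT1 (5.97, gap 0.798) and MIS18A (10.28, gap 0.727), and highest for SERPING1 (8.12, gap 0.728). On PD0332991 arrays 3 values were singled out, CRBN on replicate 2 (8.07, lowest, gap 0.75), the cyclin E gene CCNE1 on replicate 3 (9.41, highest, gap 0.762) and PUS3 on replicate 3 (7.24, highest, gap 0.873). Whether RNA quality or labelling differed on DMSO replicate 1 was not tested.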

How the results depend on the processing

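YPEL2 and YPEL5 had positive differences in all 19 alternatives, and each moved by less than the SD between replicates. Leaving out 1 array gave 0.90 to 1.13 for YPEL2, 0.35 to 0.61 for YPEL5, -0.24 to 0.06 for YPEL3 and -0.18 to 0.02 for YPEL4. Of these, the lowest for YPEL2 and YPEL5 and the highest for YPEL3 and YPEL4 came without DMSO replicate 1. The probe set shared by YPEL1 and PPIL2 ranged from -0.28 to -0.13 and was -0.44 in array set 2 alone. YPEL2 passed limma's adjusted threshold in 2 alternatives, with array weights and with both arrays numbered 1 left out, where 0.287% and 0.0546% of probe sets were called. The first gave DMSO replicate 1 the weight 0.147, and the second was added after seeing the data. As YPEL2 was chosen on this contrast, these calls are a description. Taking every probe set that names a member added only the one shared by YPEL1 and PPIL2, so it changed no other value.

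The 2 higher and 9 lower probe sets called became 1 and 8 with no array set in the model, 1 and 1 with a replicate block, 13 and 50 with array weights, and 0 and 0 in array set 1 or 2 alone. Leaving out 1 array gave 1 to 3 higher and 1 to 20 lower, with 3 and 20 without DMSO replicate 1, 1 and 5 without PD0332991 replicate 2 or 3, and 1 and 1 without DMSO replicate 4 or 5 or PD0332991 replicate 1, 4 or 5. Growth-arrest genes called were 0, and 1 without the dimmest 33.3% of probe sets, with a variance trend or without DMSO replicate 1, and 2 with array weights, so leaving out 1 array gave 0 to 1. The CTLH and Yippee-fold lists had 0 calls in every alternative, and the drug response and marker lists were not run under them. Same-numbered arrays deviated together with correlations of 0.0354 to 0.541 across probe sets. Of 5 PD0332991 arrays, 2 correlated best with their own number, so numbers were not taken as pairs, though this cannot exclude pairing. With a replicate block the differences of the members were unchanged. Their SE was then 0.09 for YPEL2, 0.15 for YPEL5, 0.17 for YPEL3 and 0.19 for YPEL4, and limma called 0 members. Values near background were limited by the array's signal.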
